A study of Arabidopsis thaliana with 2 samples.

Results

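The 45 genes described here are the iron genes of Arabidopsis thaliana that take up, move, store and sense the metal. They were chosen as a list of loci by function, with earlier results of these data known, out of 23667 loci with a read. RNA-seq had been made from whole untreated seedlings, and there were 2 libraries. The FMO5-OE T1 library came from seedlings of the Col-0 background whose genotype label is FMO5-OE T1, read as overexpression of the flavin-containing monooxygenase FMO GS-OX5 (AT1G12140). The Col-0 library came from wild-type seedlings. Both groups were 12 days old and grown at 20 °C in long days under 90 µmol m-2 s-1 of light on 0.5X GM medium. Not given in the sources used here are the promoter behind the transgene, the number of lines and seedlings pooled, and the meaning of T1.

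Arabidopsis takes iron from soil by reduction. Protons loosen ferric iron, a reductase at the root surface turns it into the ferrous form, and a transporter carries it into the epidermis. The genes for this are switched on by basic helix-loop-helix (bHLH) transcription factors when iron runs short, ubiquitin ligases act as the brake on them, and small IMA peptides hold back that brake. Inside the plant, iron travels bound to nicotianamine or citrate, and it is kept in vacuoles and in the plastid protein ferritin.

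The FMO5-OE T1 library held 12.21 M counted reads and the Col-0 library 11.56 M. CPM are counts scaled to 1 M reads with TMM library-size factors, and 1 read was worth 0.0792 CPM in FMO5-OE T1 and 0.0894 CPM in Col-0. FMO GS-OX5 itself had 1379 reads in FMO5-OE T1 and 28 in Col-0, or 109 CPM against 2.5 CPM, and was 43.6 times higher (30.1 to 65.9). There was 1 library per genotype, so nothing here has a replicate check, and no p-value is given. Genotype and any other way in which the seedlings of the 2 libraries differed cannot be told apart. Intervals on ratios are exact Clopper-Pearson intervals at 95% and cover counting error only. In whole seedlings, fewer cells of a type and less RNA per cell cannot be told apart.

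Among the iron genes at 5 CPM or more, the peptide gene IMA3 and the nicotianamine synthase NAS2 were at least 2-fold lower in FMO5-OE T1, and the ferric reductase FRO2 at least 1.5-fold. On log2(CPM + 1), the iron transporter IRT1, the phloem transporter OPT3, the regulator FIT and the synthase NAS4 passed neither limit. IRT1, 1.51 times lower by CPM, fell just short of 1.5-fold on that scale. By CPM these genes were at 0.664 to 0.74 times their Col-0 level. All other genes at 5 CPM or more, those of the ubiquitin ligases, vacuolar transporters and ferritins included, lay between 0.818 and 1.21 times their Col-0 level. Under 5 CPM and on few reads, IMA1, IMA2, bHLH38 and bHLH39 had 0.133 to 0.39 times their Col-0 level. Of the 45 genes, 44 had a read and 30 reached 5 CPM in the higher library, while 15 did not. IREG2, which codes for a vacuolar metal transporter, was listed in neither table and takes a count of 0 by the rule. Its locus has 4 annotated transcripts and overlaps AT5G03580 on the other strand, so this 0 is not read as no expression.

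On log2(CPM + 1), 2 of the 30 genes at 5 CPM or more were at least 2-fold lower in FMO5-OE T1, namely IMA3 and NAS2. That is 6.67% of them, against 0.346% of 13019 nuclear loci at that level. NAS2 reached 5 CPM in both libraries. IMA3 did so in Col-0 only, at 5.28 CPM against 1.35 CPM, with 59 reads where 55.9 were needed. None of the 30 was at least 2-fold higher, which 0.737% of all loci were. With total count CPM, loci at least 2-fold higher numbered 136 and those lower 31, where TMM gave 96 and 45. The number of iron genes lower was 2 with either scaling. At 1.5-fold the lower iron genes were 3, with FRO2 added, against 2.26% of all loci, and 0 were higher, against 3.38%. With the minimum set to 1 CPM, 5 of 38 genes were at least 2-fold lower, or 13.2%, against 0.327% of 18060 loci, and bHLH38, bHLH39 and IMA1 joined IMA3 and NAS2. Again 0 were higher, against 0.725%. Of these, bHLH38, bHLH39 and IMA1 reached 1 CPM in Col-0 only. The shares rest on few genes, some of them let in only by the library where they were higher, and were not tested. With a pseudocount of 5 CPM 0 iron genes were 2-fold apart.

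Most of the list differed little. Its median log2 ratio was -0.14 (order-statistic interval -0.24 to 0.03) against -0.01 for all nuclear loci, and its interquartile range of 0.36 was near the 0.33 of all loci. Below 0 lay 19 of 30 genes, or 63.3%, against 52.2% of all loci, and above 0 lay 11, against 47.8%. With total count CPM 15 of 29 lay below 0, or 51.7%, against 36.8% of all nuclear loci, and the medians were -0.04 for the iron genes and 0.08 for all nuclear loci.

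**Figure D1:**
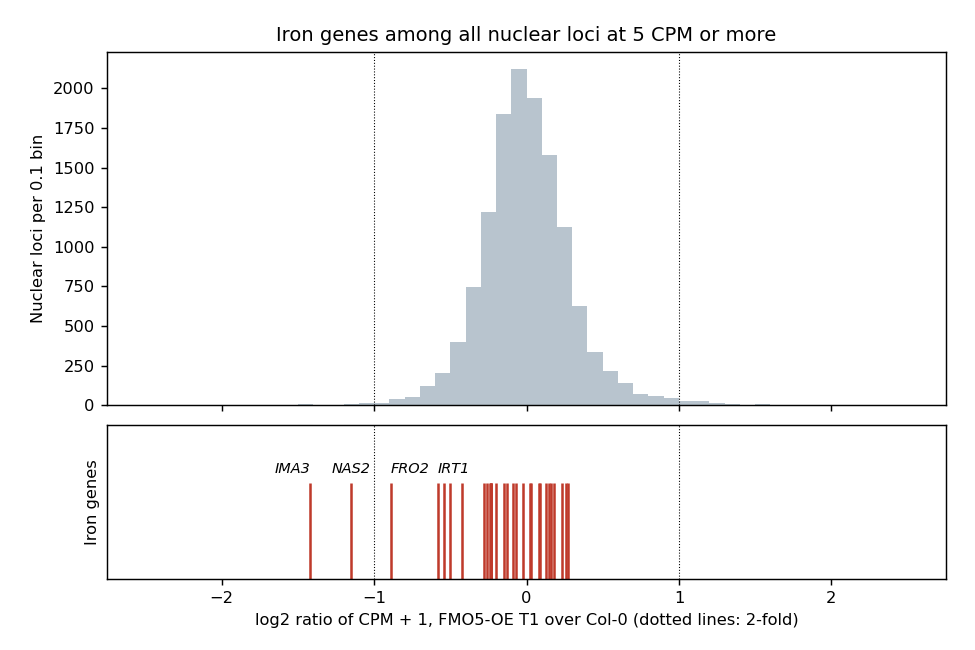
Iron genes among all nuclear loci. Upper panel, number of nuclear loci at 5 CPM or more per bin of 0.1 in the log2 ratio of CPM + 1, FMO5-OE T1 over Col-0, drawn between -2.5 and 2.5. Lower panel, 1 line per iron gene, with IMA3 at -1.42, NAS2 at -1.15, FRO2 at -0.89 and IRT1 at -0.58 as the lowest, and no gene above 0.27.

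Uptake at the root surface was the first group. FRO2, the ferric chelate reductase of the root epidermis (chromosome 1, 208995 to 213082, plus strand, RefSeq TAIR10.1), had 746 reads in FMO5-OE T1 and 1232 in Col-0. This was 59.1 CPM against 110 CPM, or 0.537 times the Col-0 level (0.489 to 0.588). IRT1, the main ferrous iron transporter of the epidermis (chromosome 4, 10707344 to 10709015, plus strand), had 555 reads in FMO5-OE T1 and 741 in Col-0, or 44 CPM against 66.3 CPM. Its ratio was 0.664 (0.593 to 0.742), so both partners of the reduction and import step were lower in the same library. NRAMP1, a plasma membrane transporter of manganese and iron, stood the other way, with 1293 reads in FMO5-OE T1 and 954 in Col-0, or 102 CPM against 85.3 CPM and a ratio of 1.2 (1.1 to 1.31). IRT2, a relative of IRT1 that acts inside the cell, had only 10 reads in FMO5-OE T1 and 5 in Col-0.

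The counts of IRT1 were listed for 2 transcript models. Model 2 took most of them, with 530 reads in FMO5-OE T1 and 696 in Col-0, a ratio of 0.675. Model 1 had 25 reads in FMO5-OE T1 and 45 in Col-0, a ratio of 0.492 (0.289 to 0.82). Both models were lower in FMO5-OE T1, but they belong to 1 locus, so this is not separate support. Model 1 was covered over 8.58% in FMO5-OE T1 and 8.31% in Col-0. IRT1 lies 2505 bases from IRT2 on the same strand, with no gene between them.

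FIT, the bHLH factor that switches on FRO2 and IRT1, had 230 reads in FMO5-OE T1 and 292 in Col-0. At 18.2 CPM against 26.1 CPM its ratio was 0.698 (0.585 to 0.833), close to that of IRT1. FIT works as a pair with a bHLH factor of subgroup Ib, and all 4 Ib genes were too low to reach 5 CPM. bHLH38 had 5 reads in FMO5-OE T1 and 22 in Col-0, or 0.396 CPM against 1.97 CPM, which made it 4.97 times lower (1.83 to 16.8). bHLH39 had 5 reads in FMO5-OE T1 and 23 in Col-0, or 0.396 CPM against 2.06 CPM, and was 5.19 times lower (1.93 to 17.5). bHLH101 had 17 reads in FMO5-OE T1 and 25 in Col-0, a ratio of 0.603 whose interval (0.305 to 1.16) spans 1. bHLH100 had 0 reads in FMO5-OE T1, which allows up to 0.238 CPM at a floor of 3 reads, and 2 in Col-0, so no ratio is given. Together the 4 Ib genes had 27 reads in FMO5-OE T1 and 72 in Col-0, or 2.14 CPM against 6.44 CPM, 3.01 times lower (1.91 to 4.87). bHLH38 and bHLH39 are neighbours on the minus strand of chromosome 3, 1144 bases apart. The bHLH38 locus overlaps AT3G56960 on the other strand, and 35.7% of its annotated transcript is shared with that gene in stretches of read length, so its few reads are uncertain.

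IVc bHLH factors act above the Ib genes and switch them on. ILR3 (bHLH105) was by far the most abundant, with 2212 reads in FMO5-OE T1 and 2303 in Col-0, or 175 CPM against 206 CPM and a ratio of 0.851 (0.803 to 0.903). bHLH34 had 194 reads in FMO5-OE T1 and 203 in Col-0, or 15.4 CPM against 18.2 CPM. bHLH104 had 52 reads in FMO5-OE T1 and 56 in Col-0, or 4.12 CPM against 5.01 CPM, and bHLH115 had 106 against 88, or 8.4 CPM against 7.87 CPM. For bHLH34, bHLH104 and bHLH115 the intervals span 1. The 4 log2 ratios ran from -0.23 to 0.08, and the difference from the Ib genes was not tested.

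The IMA genes code for short peptides that spread the iron deficiency signal and inhibit the ligase BTS. IMA3 (AT2G30766; chromosome 2, 13107583 to 13110480, plus strand) had 17 reads in FMO5-OE T1 and 59 in Col-0, or 1.35 CPM against 5.28 CPM, and was 3.92 times lower (2.25 to 7.17). IMA2 (AT1G47395) had 11 reads in FMO5-OE T1 and 25 in Col-0, and was 2.56 times lower (1.22 to 5.77). IMA1 (AT1G47400) had 3 reads in FMO5-OE T1 and 20 in Col-0, a ratio of 0.133 with a wide interval (0.0253 to 0.448). All 3 were lower in FMO5-OE T1, and their summed 31 reads in FMO5-OE T1 against 104 in Col-0 gave a level 3.79 times lower (2.51 to 5.85). Within IMA3, model 1 had 9 reads in FMO5-OE T1 and 47 in Col-0, while model 2 had 8 against 12, a ratio of 0.591 with an interval (0.209 to 1.57) that spans 1. The IMA3 locus overlaps AT2G30760 and AT2G30770 on the other strand, and reads of overlapping genes cannot be told apart without strand. IMA1 and IMA2 lie in tandem 1876 bases apart and share some sequence, 7.57% of the annotated IMA1 transcript in stretches of read length, where a read matches both genes.

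To show what stands in front of genes with low ratios, the 300 bases before the annotated start of bHLH38, bHLH39, IMA1, IMA2 and NAS2 are given below, and those of BTS as a gene with a ratio near 1. The window of IMA3, which overlaps AT2G30760, is not printed. They are from the RefSeq TAIR10.1 genome, 5′ to 3′ on the gene's strand, and capitals mark each E-box CANNTG, the letters that bHLH proteins bind, of which CACGTG is the G-box. The windows are chr3:21085246-21085545 (minus strand) for bHLH38, chr3:21087711-21088010 (minus) for bHLH39, chr1:17385407-17385706 (plus) for IMA1, chr1:17382698-17382997 (plus) for IMA2, chr5:22712442-22712741 (minus) for NAS2 and chr3:6273666-6273965 (plus) for BTS.
bHLH38: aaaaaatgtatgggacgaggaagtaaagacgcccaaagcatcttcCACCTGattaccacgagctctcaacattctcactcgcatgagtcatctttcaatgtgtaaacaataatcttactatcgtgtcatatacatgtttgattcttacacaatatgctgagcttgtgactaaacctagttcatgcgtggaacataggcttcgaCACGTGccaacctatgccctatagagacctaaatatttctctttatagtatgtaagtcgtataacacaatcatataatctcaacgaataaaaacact
bHLH39: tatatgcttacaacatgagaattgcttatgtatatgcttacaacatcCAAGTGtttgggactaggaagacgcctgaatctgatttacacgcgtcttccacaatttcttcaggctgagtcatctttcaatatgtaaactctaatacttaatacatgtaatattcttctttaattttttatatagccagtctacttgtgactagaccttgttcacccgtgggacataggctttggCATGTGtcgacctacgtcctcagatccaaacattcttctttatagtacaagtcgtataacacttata
IMA1: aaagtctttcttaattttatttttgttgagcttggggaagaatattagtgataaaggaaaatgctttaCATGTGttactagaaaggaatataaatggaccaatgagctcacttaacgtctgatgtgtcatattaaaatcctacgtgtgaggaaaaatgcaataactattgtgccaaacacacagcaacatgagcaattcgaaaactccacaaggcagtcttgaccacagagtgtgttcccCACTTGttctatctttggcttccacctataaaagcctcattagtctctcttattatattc
IMA2: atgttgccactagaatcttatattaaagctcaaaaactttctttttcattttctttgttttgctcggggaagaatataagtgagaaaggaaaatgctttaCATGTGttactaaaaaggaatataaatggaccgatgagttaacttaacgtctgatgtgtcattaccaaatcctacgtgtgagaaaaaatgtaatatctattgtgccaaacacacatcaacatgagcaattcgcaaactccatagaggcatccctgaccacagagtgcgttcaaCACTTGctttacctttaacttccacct
NAS2: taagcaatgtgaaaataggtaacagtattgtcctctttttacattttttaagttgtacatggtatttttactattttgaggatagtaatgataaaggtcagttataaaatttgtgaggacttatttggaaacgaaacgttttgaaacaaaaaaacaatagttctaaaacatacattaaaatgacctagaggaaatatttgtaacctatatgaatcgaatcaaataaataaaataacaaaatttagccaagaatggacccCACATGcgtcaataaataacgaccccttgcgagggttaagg
BTS: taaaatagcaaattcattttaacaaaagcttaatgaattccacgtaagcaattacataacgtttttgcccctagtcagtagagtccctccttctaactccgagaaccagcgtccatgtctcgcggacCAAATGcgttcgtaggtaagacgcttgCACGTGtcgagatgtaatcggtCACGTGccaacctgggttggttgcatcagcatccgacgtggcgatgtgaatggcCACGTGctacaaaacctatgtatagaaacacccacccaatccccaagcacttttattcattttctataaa

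The bHLH38 window held a G-box whose first base lies 97 bases before the start, beside the E-box CACCTG, and BTS held 3 G-boxes, at 146, 124 and 70 bases, and the E-box CAAATG. The bHLH39 window had no G-box and held CAAGTG and CATGTG. IMA1 and IMA2 had no G-box, and each held the E-boxes CATGTG and CACTTG. The IMA1 and IMA2 windows shared a run of 28 identical bases, aaaggaaaatgctttacatgtgttacta, around the first of these, and bHLH38 and bHLH39 shared a run of 16, tgagtcatctttcaat. NAS2 held 1 E-box, CACATG. IMA3 held the E-boxes CATGTG and CAAGTG. The windows of IRT1, FRO2 and bHLH101, which had ratios under 1 too and are not printed, held neither motif. Across the list, both strands searched, 8 of 45 windows held the G-box, against 7.09% of 27443 protein-coding genes, and 31 held an E-box, against 61.9%. Every G-box is also counted as an E-box. The genes with a G-box were bHLH38, bHLH100, BTS, OPT3, FRO6, FRO7, FER3 and FER4. Those with reads enough for a ratio ran from bHLH38 at a log2 ratio of -1.09 to FER4 at 0.15. A match is a description of these letters and not of binding.

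**Figure D2:**
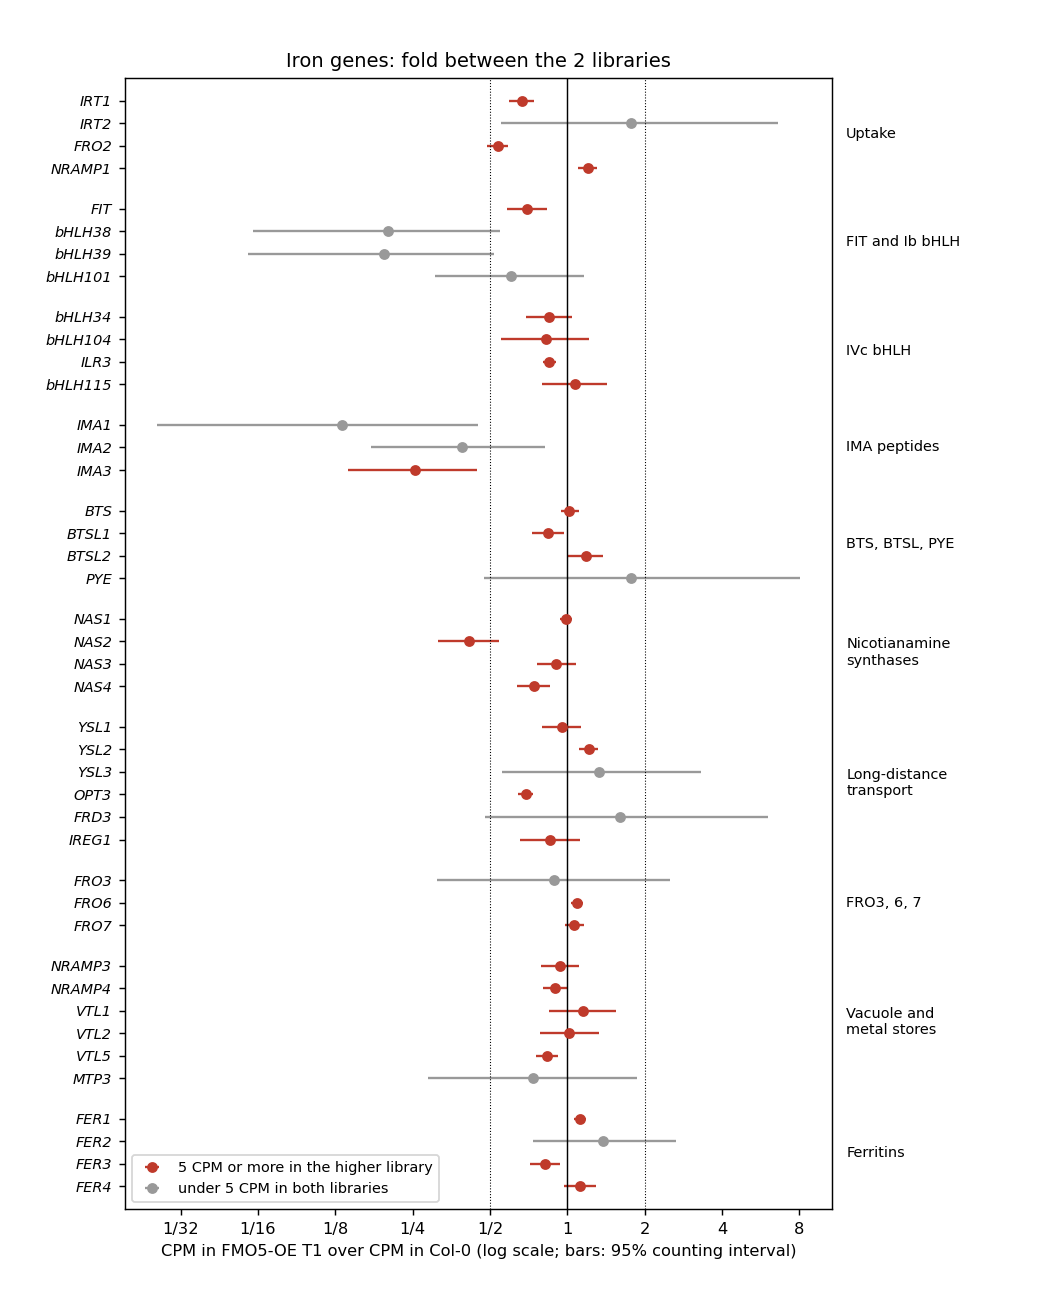
Ratio of CPM in FMO5-OE T1 to CPM in Col-0 for each iron gene with more than 3 reads in either library, on a log axis, with 95% counting intervals. Grey points are genes under 5 CPM in both libraries, and the dotted lines mark 2-fold. The IMA genes, bHLH38, bHLH39 and NAS2 lie to the left of the lower dotted line, IRT1, FRO2, FIT and OPT3 between it and 1, and most other genes near 1.

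The ubiquitin ligase genes stood near their Col-0 level. BTS, the ubiquitin ligase that marks IVc factors for breakdown, had 1369 reads in FMO5-OE T1 and 1185 in Col-0, or 108 CPM against 106 CPM and a ratio of 1.02 (0.946 to 1.11). Its root relatives stood on either side of 1. BTSL1 had 373 reads in FMO5-OE T1 and 392 in Col-0, or 29.6 CPM against 35.1 CPM and a ratio of 0.843 (0.73 to 0.974). BTSL2 had 368 reads in FMO5-OE T1 and 277 in Col-0, or 29.2 CPM against 24.8 CPM and a ratio of 1.18. PYE, a bHLH repressor, had 8 reads in FMO5-OE T1 and 4 in Col-0, too few to place.

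Nicotianamine synthases make the chelator that carries iron through the plant. NAS2 (AT5G56080; chromosome 5, 22711141 to 22712441, minus strand) had 81 reads in FMO5-OE T1 and 173 in Col-0, or 6.42 CPM against 15.5 CPM, and was 2.41 times lower (1.84 to 3.18). NAS4 was lower by less, with 324 reads in FMO5-OE T1 and 388 in Col-0, or 25.7 CPM against 34.7 CPM and a ratio of 0.74 (0.637 to 0.86). The most abundant of the family, NAS1, had 3356 reads in FMO5-OE T1 and 3010 in Col-0, or 266 CPM against 269 CPM, and its log2 ratio of -0.02 became 0.08 with total count CPM. NAS3 had 258 reads in FMO5-OE T1 and 252 in Col-0, or 20.4 CPM against 22.5 CPM. The 4 synthases ranged from a log2 ratio of -1.15 for NAS2 to -0.02 for NAS1, and the summed level of the family, 318 CPM in FMO5-OE T1 against 342 CPM in Col-0, was mostly NAS1. NAS1 and NAS2 share 3.77% of the annotated NAS2 transcript in stretches of read length.

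Among transporters that move iron between organs, OPT3, which loads iron into the phloem and takes part in the shoot-to-root iron signal, stood out. It had 1642 reads in FMO5-OE T1 and 2116 in Col-0, or 130 CPM against 189 CPM and a ratio of 0.688 (0.644 to 0.734). YSL2, a transporter of nicotianamine complexes, was higher, with 1232 reads in FMO5-OE T1 and 903 in Col-0, or 97.6 CPM against 80.8 CPM and a ratio of 1.21 (1.11 to 1.32). YSL1, of the same family, had 274 reads in FMO5-OE T1 and 255 in Col-0, or 21.7 CPM against 22.8 CPM, and its log2 ratio of -0.07 became 0.02 with total count CPM. IREG1, the ferroportin of the vasculature, had 114 reads in FMO5-OE T1 and 118 in Col-0, or 9.03 CPM against 10.6 CPM. YSL3 had 15 reads in FMO5-OE T1 and 10 in Col-0, and the citrate exporter FRD3 had 9 against 5.

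The 2 abundant reductases away from the root surface were slightly above their Col-0 level. FRO6, of leaf cell membranes, had 2905 reads in FMO5-OE T1 and 2358 in Col-0, or 230 CPM against 211 CPM and a ratio of 1.09 (1.03 to 1.15). FRO7, of the chloroplast, had 1187 reads in FMO5-OE T1 and 990 in Col-0, or 94.1 CPM against 88.5 CPM and a ratio of 1.06 (0.976 to 1.16). FRO6 and FRO7 are neighbours 706 bases apart, and 25.1% of the annotated FRO6 transcript is shared with FRO7 in stretches of read length, so their counts are uncertain. FRO3, of mitochondria, had 9 reads in each library.

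Vacuolar transporters decide how much iron a cell locks away. NRAMP3, which releases iron from the vacuole, had 278 reads in FMO5-OE T1 and 263 in Col-0, or 22 CPM against 23.5 CPM, and a log2 ratio of -0.09 that was 0.0015 with total count CPM. NRAMP4, its partner, had 623 reads in FMO5-OE T1 and 614 in Col-0, or 49.4 CPM against 54.9 CPM. The intervals of both ratios span 1. VTL1, of the vacuolar iron transporter-like family, had 105 reads in FMO5-OE T1 and 81 in Col-0, or 8.32 CPM against 7.24 CPM. VTL2, of that family too, had 125 reads in FMO5-OE T1 and 109 in Col-0, or 9.91 CPM against 9.75 CPM. VTL5 was slightly lower, with 748 reads in FMO5-OE T1 and 794 in Col-0, or 59.3 CPM against 71 CPM and a ratio of 0.835 (0.754 to 0.924). VIT1, which loads iron into the vacuole, had 1 read in FMO5-OE T1 and 3 in Col-0, and the zinc transporter MTP3 had 10 against 12.

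Ferritins, which store iron in plastids and whose transcripts are known to be high in iron-replete plants, did not stand on one side of their Col-0 level. FER1, the main ferritin of leaves, had 2810 reads in FMO5-OE T1 and 2230 in Col-0, or 223 CPM against 199 CPM and a ratio of 1.12 (1.06 to 1.18). FER4 had 437 reads in FMO5-OE T1 and 347 in Col-0, or 34.6 CPM against 31 CPM, also a ratio of 1.12 (0.967 to 1.29). FER3 was lower, with 411 reads in FMO5-OE T1 and 445 in Col-0, or 32.6 CPM against 39.8 CPM and a ratio of 0.818 (0.714 to 0.938). The seed ferritin FER2 had 28 reads in FMO5-OE T1 and 18 in Col-0. Summed over the 4 genes, ferritin reads gave 292 CPM in FMO5-OE T1 and 272 CPM in Col-0, a ratio of 1.07 (1.02 to 1.13), most of it FER1.

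**Figure D3:**
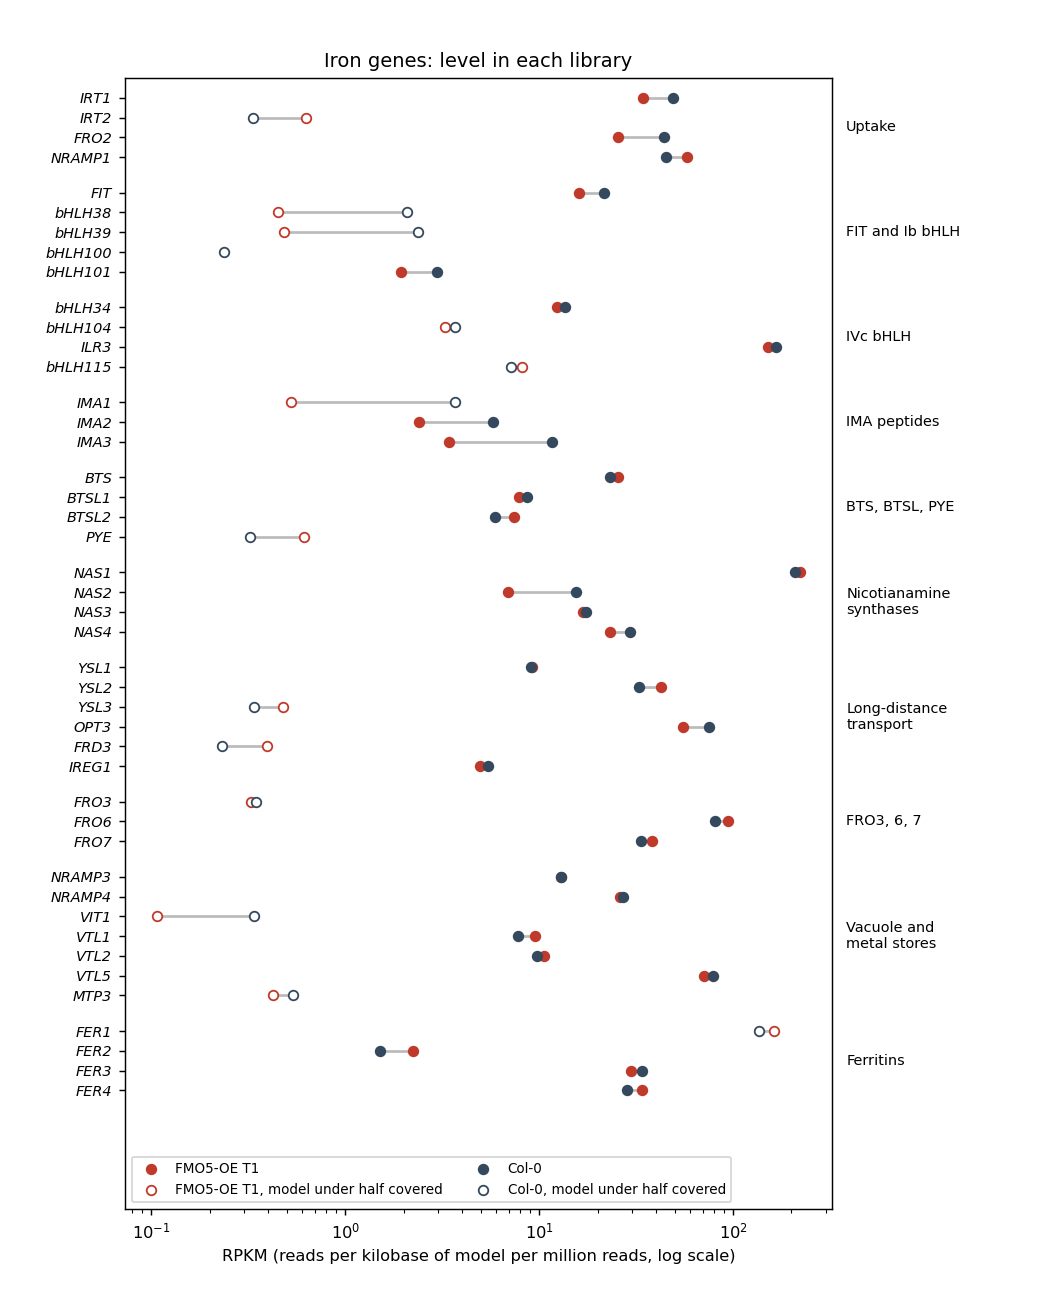
Level of each iron gene in RPKM (reads per kilobase of transcript model, scaled to library total, log axis), FMO5-OE T1 in red and Col-0 in dark blue. For genes with more than 1 listed model the RPKM of the models was summed. Open points are genes whose model was under 50% covered in either library, and a library with 0 reads has no point. NAS1, ILR3 and FER1 lie highest in both libraries. The Ib bHLH genes, IMA1 and IMA2 lie toward the low end in both, while IMA3 in Col-0, at 11.7, lies above bHLH115 and BTSL1.

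Per length, the iron genes spanned a wide range. In RPKM, the highest levels in FMO5-OE T1 were NAS1 at 221, FER1 at 162, ILR3 at 151, FRO6 at 94.1 and VTL5 at 70.4. In Col-0 they were NAS1 at 209, ILR3 at 166, FER1 at 136, FRO6 at 80.7 and VTL5 at 78.9, so the order of FER1 and ILR3 differed between the libraries. FRO2 had 25.4 RPKM in FMO5-OE T1 and 44.2 in Col-0. IRT1 was at 34.3 RPKM in FMO5-OE T1 and 49 in Col-0, and NRAMP1 at 57.6 against 44.9. NRAMP1 was the highest of these 3 uptake genes in FMO5-OE T1. RPKM was summed over the listed models, and of the 3 only IRT1 had 2. In Col-0 IRT1 was highest on that sum only, so no change of order is read from it. The Ib genes, IMA1 and IMA2 were among the low ones. IMA3, summed over its 2 models, was at 3.42 RPKM in FMO5-OE T1 and 11.7 in Col-0. In Col-0 that sum was above bHLH115 at 7.17 and BTSL1 at 8.69.

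How far reads covered each model shows how much of the gene a count came from, and with few reads it is bounded by the count. Of the 44 genes with reads, 30 had a model covered over at least 50% of its length in both libraries. Of the other 14, IRT2, bHLH100, bHLH104, bHLH115, PYE, YSL3, FRD3, FRO3, VIT1 and MTP3 had at most 15.99% covered in either library. In bHLH115, 106 reads in FMO5-OE T1 and 88 in Col-0 lay on 8.67% and 13.38% of the model, a small part of the gene. In VIT1 and bHLH100 a small covered part follows from the few reads. There it cannot show whether the count understates expression. In none of these genes is a low count read as low expression. IRT1, IMA3, IRT2, bHLH104, YSL3, FRD3, FRO3 and MTP3 had 2 listed models, and how reads common to both were counted is not given. FER1 was covered over 48.7% in both libraries and overlaps AT5G01595 on the other strand. Where a gene had more than 1 listed model, the model with most reads was taken. In the low regulators fewer reads went with a smaller covered part. At so few reads of 49 bases the count itself bounds that part, so it is no separate check. bHLH38 was covered over 16.2% in FMO5-OE T1 and 63.8% in Col-0, bHLH39 over 23.7% against 60.5% and IMA1 over 31.3% against 78.7%.

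**Figure D4:**
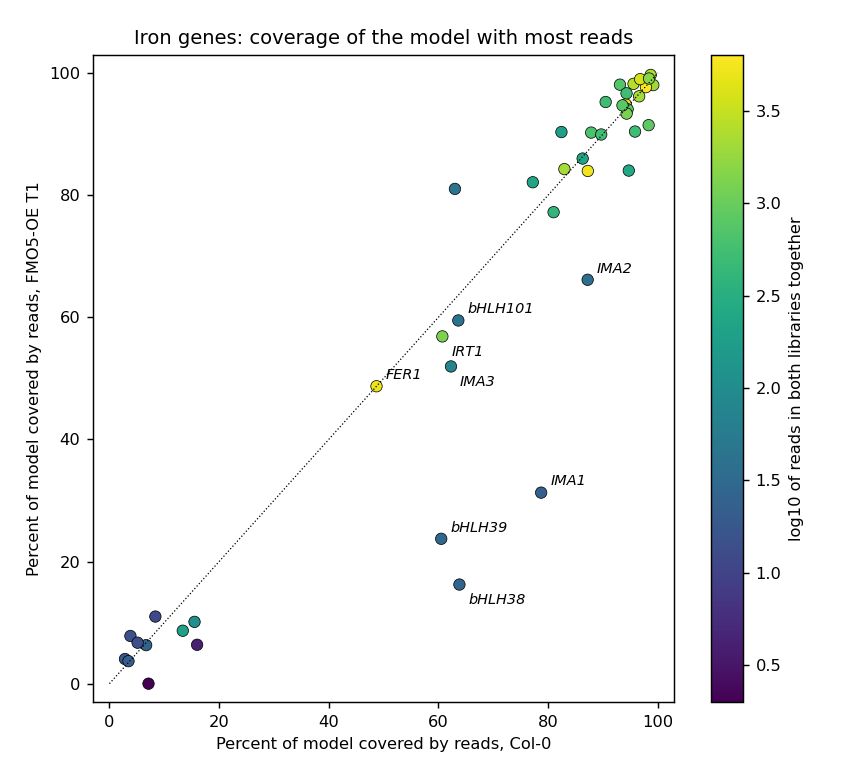
Percent of the transcript model covered by reads in Col-0 (horizontal) and FMO5-OE T1 (vertical), 1 point per iron gene, coloured by the log10 of its reads in both libraries together. Most genes lie near the dotted line of equal coverage. IMA1, bHLH38 and bHLH39, with few reads in FMO5-OE T1, lie well below it. A cluster of genes at the lower left is counted over a small part of the model only, which in some follows from few reads.

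A second list of 33 iron genes outside the 45 showed no common direction. Of its 20 genes at 5 CPM or more, 10 lay above 0 and 10 below, with a median log2 ratio of -0.01, and 0 were 2-fold apart. With total count CPM 13 of 20 lay above 0, or 65%, against 63.2% of all nuclear loci, and the median was 0.08. The largest in size was URI, a bHLH factor needed for the iron deficiency response, with 114 reads in FMO5-OE T1 and 61 in Col-0 and a ratio of 1.66 (1.2 to 2.3). Next was the metal transporter NRAMP6, with 151 reads in FMO5-OE T1 and 85 in Col-0 and a ratio of 1.57 (1.2 to 2.08). The proton pump AHA2, which acidifies the root surface, had 1765 reads in FMO5-OE T1 and 2133 in Col-0, a ratio of 0.733 (0.688 to 0.781), and the lowest log2 ratio of that list at 5 CPM or more, -0.44. In the coumarin pathway, which makes iron-mobilising compounds, 2 of 5 genes at 5 CPM or more were 2-fold lower, against 0.346% of all loci. The median log2 ratio was -0.34. This list, like the other lists here, was chosen with earlier results of these data known, so the share is a description only. Of the 2 genes, S8H reached 5 CPM in Col-0 only. S8H, which hydroxylates scopoletin, had 30 reads in FMO5-OE T1 and 113 in Col-0, or 2.38 CPM against 10.1 CPM, and was 4.25 times lower (2.82 to 6.59). CYP82C4, which acts after S8H, had 396 reads in FMO5-OE T1 and 774 in Col-0, or 31.4 CPM against 69.2 CPM, and was 2.21 times lower (1.95 to 2.5).

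Markers of root and leaf were set beside the iron genes. All 10 root hair genes at 5 CPM or more lay above 0, against 47.8% of all loci, with a median log2 ratio of 0.35 (0.02 to 0.88). The ratio intervals of EXPA7, EXPA18, LRX2, COBL9 and RHD6 spanned 1, and RSL4, under 5 CPM, had a ratio of 0.982. The summed level of the 11 listed genes was 466 CPM in FMO5-OE T1 against 347 CPM in Col-0. PRP1, a proline-rich wall protein of root hairs, was 2.27 times higher, with 491 reads in FMO5-OE T1 and 192 in Col-0. For other root genes the median was -0.07 and 2 of 9 lay above 0, while with total count CPM it was 0.03 and 6 of 10 did. Their summed level was 6081 CPM in FMO5-OE T1 against 5663 CPM in Col-0, of which PYK10 made 5813 CPM and 5341 CPM. TIP2;3, a tonoplast channel, was 2-fold lower, with 287 reads in FMO5-OE T1 and 604 in Col-0. No gene of either root list was at 0. The median of leaf photosynthesis genes was -0.31, and all 11 lay below 0, against 52.2% of all loci. With total count CPM, RCA lay above 0. The summed level of the leaf genes was 23652 CPM in FMO5-OE T1 against 27653 CPM in Col-0. The largest in size were RBCS2B and RBCS3B, subunits of Rubisco, both at -0.44, with ratios of 0.738 and 0.736. The part of tissue share in the ratios of the iron genes, FRO2, IRT1 and FIT included, was not tested.

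**Figure D5:**
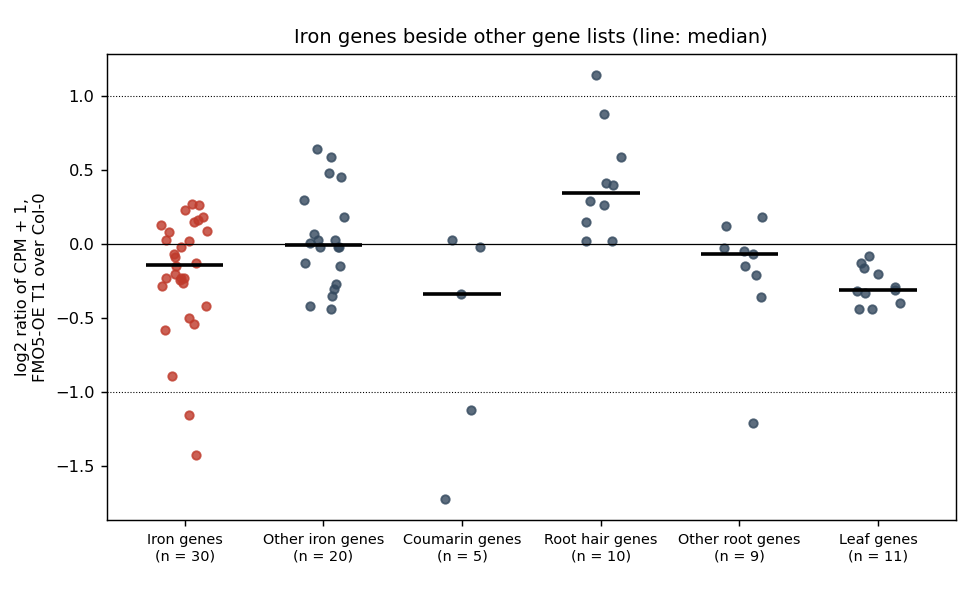
Log2 ratio of CPM + 1, FMO5-OE T1 over Col-0, of each gene at 5 CPM or more in 6 lists, with the median as a line and dotted lines at 2-fold. The iron genes (red) have a median of -0.14 with a tail down to -1.42, and the root hair genes all lie above 0.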

How the data were processed

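Total RNA of whole seedlings was extracted with TRIzol, per the labels' protocols, and 1 library per genotype was sequenced. The deposited counts are whole numbers of reads per transcript model, named as unique reads in the file headers. The build TAIR10 is from the submitters' processing notes. Not given in the sources used here are the aligner, the counter and the use of strand. The deposited tables also hold model length, percent covered and RPKM. RPKM was recomputed, and 100% of values matched the authors' own to within 0.5 RPKM. Reads were 49 bases long, from the covered part of models with 1 read.

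Models were summed by locus, and absent ones taken as 0. CPM used TMM factors from edgeR 4.0.16 (1.03 for FMO5-OE T1 and 0.967 for Col-0), with DESeq2 1.42.0 size factors as an alternative, in R 4.3.3. Ratios of CPM have FMO5-OE T1 on top, and log2 ratios use CPM + 1, which understates the difference of low genes. A gene was called apart at 2-fold on that scale and 5 CPM in the higher library, or 63.1 reads in FMO5-OE T1 and 55.9 in Col-0. The code was tested on simulated data. Every member was named, by rule, and of each further list the genes 2-fold apart or, with none, the 2 largest in ratio. AHA2, PYK10 and RCA were named after their values were seen, as were the root hair genes other than PRP1. The list genes bHLH18, NRAMP5, VTL4 and MYB72 had 0 reads in both libraries. The members and lists were chosen with earlier results of these data known. RefSeq TAIR10.1 gave positions and promoters. Of the 45 symbols, 40 were found in its annotation, the IMA and BTSL names being from common use. Its main symbol is the locus tag for VTL1, VTL2 and VTL5, FRU for FIT and MTPA2 for MTP3. Other software was matplotlib 3.10.9, scipy 1.17.1, pandas 2.3.3, numpy 2.4.6 and Python 3.11.15.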

Additional observations from a re-analysis of the deposited data

How the results depend on the processing

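No paired analysis was possible because each genotype had 1 library. The number of iron genes at least 2-fold lower, 2 as reported, was 0 with a pseudocount of 5 CPM, with only genes at 20 CPM or more, and by a 3-fold rule. It was 1 with the model of most reads and 1 with loci of 1 listed model. In both of these IMA3 was no longer among the genes compared. With the model of most reads IMA3 fell under 5 CPM, and its log2 ratio was -1.60. The number lower was 5 when the minimum was 1 CPM and 5 with no minimum. The number higher was 0 in each alternative run. Over all nuclear loci the numbers higher and lower were 42 and 17 with a pseudocount of 5 CPM, 56 and 21 at 20 CPM, 440 and 294 at 1.5-fold, and 16 and 3 at 3-fold. The median of the iron genes ran from -0.21 at a minimum of 1 CPM to -0.04 with total count CPM, within its interval. Of 300 log2 ratios of single iron genes, 286 were called unchanged against their counting interval and 14 moved. The 286 include IMA1 at -1.13 with total count CPM and -1.15 with nuclear count CPM, just outside its interval. Of the 300, 5 changed sign, at NAS1, YSL1 and NRAMP3, with total or nuclear count CPM. Of 162 medians of roles and lists, 7 changed sign. These were the vacuole genes with total count CPM, the other iron and other root genes with total and nuclear count CPM, the transporters at 0.07 with no minimum, and the ferritins at -0.06 with models at least 50% covered, an alternative chosen after seeing the data. The cause was not tested. Depth limits the IMA and Ib bHLH genes, whose intervals are wide.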
